A study of Mus musculus with 12 samples.

Results

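Basement membrane collagens, laminins and nidogen were followed across macrophages and fibroblasts. The 10 genes were chosen by symbol, as the rows Col4a1, Col4a2, Col4a5, Col15a1, Col18a1, Lama4, Lama5, Lamb1, Lamc1 and Nid1 of a count table of 32544 genes. The rule uses no measured value, but the set was chosen with earlier results of these data known. Counts of its members are thus not independent of those results. All 10 were present and all 10 passed the filter on low counts. Lama4, Lama5, Lamb1 and Nid1 passed it only through the fibroblast libraries, since no macrophage library held more than 10 counts of any of them.

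RNA was measured in bone marrow-derived macrophages (BMDMs), taken 24 h after seeding, and in NIH/3T3 cells, a mouse fibroblast line, after 72 h in medium that BMDMs had conditioned for 24 h. BMDMs labelled PHD2cko came from mice with a conditional knockout of PHD2, the oxygen-sensing prolyl hydroxylase encoded by Egln1, driven by Cre under the myeloid LysM promoter. BMDMs labelled WT came from control mice with the LysMCre transgene, and the mice of both labels lacked the LDL receptor and had been crossed to C57Bl6/J. BMDMs were grown out of marrow in medium with L929-conditioned medium, which was also present while the fibroblast medium was conditioned, and the fibroblasts were starved in low serum before exposure. The fibroblasts carried no knockout, so the labels WT medium and PHD2cko medium refer to the donor cells. The conditioning was done in normal oxygen or in hypoxia, and the text used here does not name which applies to the sequenced cultures, nor the age of the mice. Each of the 4 groups held 3 libraries, called triplicates, with nothing said of separate animals or cultures, so p-values measure only the spread between these libraries, which may be technical.

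A basement membrane is a thin sheet of matrix on which epithelial and endothelial cells rest and which wraps muscle, fat and nerve cells. Laminin trimers, made of an alpha, a beta and a gamma chain, and trimers of collagen IV each form a network, and nidogen links the networks. Collagens XV and XVIII sit at the border between the basement membrane and the fibrillar matrix. In the atherosclerotic artery these proteins underlie the endothelium and surround smooth muscle cells, and cultured fibroblasts also secrete many of them.

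Library totals ran from 15516465 to 25199770 estimated counts, and levels are given as counts per 1e6 counts after TMM normalization (CPM). Egln1 was higher, not lower, in BMDMs labelled PHD2cko, at 69.6 ± 1.77 CPM against 55.4 ± 0.574 CPM in WT (SD, n = 3 each), with a log2 fold change of 0.33 and an adjusted p of 0.00203 in edgeR's quasi-likelihood test. Counts summed over the whole gene do not separate a deleted exon from the rest, so this gene does not check the label, and the label is kept here as a name. All 24 macrophage markers were found in every BMDM library, with a summed level of 46253 to 54167 CPM, and all 8 fibroblast markers were found in every 3T3 library, at 18714 to 22781 CPM. Endothelial markers summed to 27.3 to 61.9 CPM over 5 genes and epithelial markers to 0.0605 to 0.423 CPM over 4 genes in all 12 libraries. Of the endothelial markers 2 were tested. Kdr, a receptor for VEGF that BMDMs here expressed at 17.4 to 17.5 CPM in WT, had 0, 2 and 2 counts in fibroblasts in WT medium and 16, 1 and 11 in PHD2cko medium (log2 fold change 2.87, adjusted p = 0.0226 in edgeR). In BMDMs labelled PHD2cko Kdr was at 8.40 to 8.98 CPM (log2 fold change -1.02, adjusted p = 0.00656), and Pecam1 passed the test in neither cell type. Replicate 1 of the fibroblasts in WT medium stood apart from the others of its group. The counts of replicates 1 and 2 differed with a chi-square of 24.8 per degree of freedom and those of replicates 1 and 3 with 26.9, against 2.35 between replicates 2 and 3. For the members and the list genes called in fibroblasts, fold changes or calls are therefore also given without that library. The same holds for the ratios and levels per kb in fibroblasts. Values of the cell type markers, Kdr among them, are given over all libraries only. Macrophage markers also differed between the media. They summed to 21.7 to 23.2 CPM in WT medium, where 0 to 2 of the 24 markers were at 0, and to 899, 201 and 811.6 CPM in replicates 1, 2 and 3 in PHD2cko medium, where none was at 0. Of the 24 markers 23 were higher in PHD2cko medium in edgeR's test and 0 were lower. Of the 8 fibroblast markers 2 were higher and 1 was lower there, and 1 was higher in BMDMs labelled PHD2cko. The markers were also scaled to the BMDM level, from counts over library totals without TMM. They amounted to 2.35, 0.522 and 2.11% in replicates 1, 2 and 3 in PHD2cko medium. In WT medium they amounted to 0.0489 to 0.0528%. In bulk samples, fewer cells of a type cannot be told apart from less RNA per cell.

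All 10 genes were placed by symbol in GENCODE on GRCm38, the build of the deposited counts. Col4a1 (ENSMUSG00000031502.11) lies at chr8:11198423-11312826 on the minus strand and Col4a2 (ENSMUSG00000031503.13) at chr8:11312805-11449287 on the plus strand. They encode the most widespread chains of collagen IV, are read in opposite directions, and overlap by 22 bases at their starts. Col4a5 (ENSMUSG00000031274.16), another collagen IV chain, lies at chrX:141475385-141689234 on the plus strand, 1308 bases from Col4a6, its neighbour on the other strand. Col15a1 (ENSMUSG00000028339.17) lies at chr4:47208161-47313167 on the plus strand and Col18a1 (ENSMUSG00000001435.15) at chr10:77052178-77166548 on the minus strand. The laminin alpha chain genes are Lama4 (ENSMUSG00000019846.11), at chr10:38965515-39110188 on the plus strand, and Lama5 (ENSMUSG00000015647.9), at chr2:180176373-180225859 on the minus strand. Lamb1 (ENSMUSG00000002900.16), for a beta chain, lies at chr12:31265234-31329644 on the plus strand, Lamc1 (ENSMUSG00000026478.14), for a gamma chain, at chr1:153218922-153332786 on the minus strand, and Nid1 (ENSMUSG00000005397.8), for nidogen, at chr13:13437551-13512269 on the plus strand. Col4a1, Col4a2 and Egln1 share chromosome 8, and Egln1 lies 113 Mb from Col4a2.

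RefSeq promoter windows on GRCm38.p6, from 250 bases before to 50 bases after a start site, matched 8 of the 10 genes, with 2 windows for Col18a1. Lama4 and Lamc1 had no window. The Col18a1 window shown is 1 of its 2, and the other, at chr10:77113656-77113955, held none of the motifs searched. Below are the windows of the head-to-head pair Col4a1 and Col4a2, whose products assemble together, and of Col15a1 and Col18a1, whose counts were higher in fibroblasts in PHD2cko medium. Each is written on the strand of its gene. Capitals mark 3 motifs. The core GCGTG is bound by hypoxia-inducible factors. The CCAAT box reads ATTGG when it lies on the other strand. The GC box is spelled GGGCGG, and its complement is spelled CCGCCC.
Col4a1, chr8:11312777-11313076, minus strand: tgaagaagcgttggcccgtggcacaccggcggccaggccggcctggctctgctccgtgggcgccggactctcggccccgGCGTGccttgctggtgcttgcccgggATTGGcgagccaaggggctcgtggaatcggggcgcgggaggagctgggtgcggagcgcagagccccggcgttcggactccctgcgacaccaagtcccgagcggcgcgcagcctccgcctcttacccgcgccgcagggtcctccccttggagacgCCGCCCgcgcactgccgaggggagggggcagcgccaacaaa
Col4a2, chr8:11312555-11312854, plus strand: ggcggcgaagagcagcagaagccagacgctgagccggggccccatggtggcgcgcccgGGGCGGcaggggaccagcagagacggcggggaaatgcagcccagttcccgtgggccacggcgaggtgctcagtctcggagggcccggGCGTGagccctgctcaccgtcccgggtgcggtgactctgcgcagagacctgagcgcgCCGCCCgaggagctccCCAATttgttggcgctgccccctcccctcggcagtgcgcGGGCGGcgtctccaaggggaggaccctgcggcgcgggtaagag
Col18a1, chr10:77166481-77166780, minus strand: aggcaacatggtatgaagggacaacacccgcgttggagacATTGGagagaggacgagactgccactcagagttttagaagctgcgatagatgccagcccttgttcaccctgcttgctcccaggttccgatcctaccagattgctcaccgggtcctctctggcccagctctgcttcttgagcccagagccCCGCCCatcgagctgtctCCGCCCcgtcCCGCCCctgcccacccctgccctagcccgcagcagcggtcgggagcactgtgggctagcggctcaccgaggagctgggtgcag
Col15a1, chr4:47207762-47208061, plus strand: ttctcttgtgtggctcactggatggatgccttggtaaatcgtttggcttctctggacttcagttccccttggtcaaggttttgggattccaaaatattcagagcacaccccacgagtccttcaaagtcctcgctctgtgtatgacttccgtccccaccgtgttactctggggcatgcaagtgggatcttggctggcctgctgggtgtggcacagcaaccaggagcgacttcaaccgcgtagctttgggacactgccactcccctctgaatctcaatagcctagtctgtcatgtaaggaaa

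The Col4a1 and Col4a2 windows share 78 bases. A single GC box, at chr8:11312812-11312817, lies in both, 10 bases after the start of Col4a1 and 8 bases after that of Col4a2. Each of these windows also holds a GCGTG and a CCAAT of its own, and no 2 matches overlap in the printed windows. The Col18a1 window holds 3 GC boxes within 61 bases before the start, and the Col15a1 window holds none of the letters searched. That Col15a1 window follows the RefSeq start and ends at chr4:47208061, before the GENCODE start at chr4:47208161. The bases next to the GENCODE start were not searched. Both strands were searched for 5 motifs. Of the 8 genes with a window, 3 held the hypoxia core GCGTG and 0 held its other form, written ACGTG. The shares of all 32851 RefSeq windows of this length with these forms were 32.4% and 19.6%. The CCAAT box was found for 6 of the 8 and in 37.4% of all windows, and the GC box for 7 of the 8 and in 35.7%. A TATAAA box was found for 0 of the 8 and in 13.6% of all windows. Members were counted by gene and the shares by window. The share of G and C bases ran from 52.3 to 74% in the members' windows, against a median of 52.7% over all windows. Its part in the motif counts was not tested.

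The first comparison was between cell types under the WT label, where culture medium and time also differed. In WT BMDMs Col18a1 and Lamc1 were the only members above 100 CPM. In fibroblasts the collagen IV members, Lama4, Lamb1, Lamc1 and Nid1 were all above that level. In edgeR's test 8 members were higher in fibroblasts, where 44.9% of all genes tested were higher, and 2 were lower, where 40.4% were lower. Lama4, Lama5, Lamb1 and Nid1 were tested only through their counts in fibroblasts, so the filter fixed their direction. Of the other 6 members, which had at least 10 counts in every library compared, 4 were higher and 2 lower. All of these calls held without replicate 1 in WT medium.

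Levels of different genes were compared per kb of merged exons. In fibroblasts in WT medium Nid1 led at 86.9 ± 12.9 CPM per kb (SD, n = 3). Lamb1 followed at 57.7 ± 4.81, Lamc1 at 49.9 ± 7.84, Col4a2 at 42.6 ± 4.34 and Col4a1 at 42.3 ± 3.80 CPM per kb. The libraries of each of these 4 overlapped with those of its neighbour in the order, while those of Nid1 lay above all of them. Col4a5, at 33.4 ± 2.18 CPM per kb, and Lama4, at 18.7 ± 2.21, came next without overlap. Col18a1 was at 1.54 ± 0.116, Lama5 at 1.11 ± 0.243 and Col15a1 at 0.331 ± 0.0524 CPM per kb, again without overlap. In PHD2cko medium Nid1 was at 98.4 ± 2.92 CPM per kb and the order held, except that Col15a1 and Lama5 changed places with overlapping libraries. With the length of the longest coding transcript, which is 6.046 kb for Lama4 against 12.068 kb of merged exons, Lama4 moved above Col4a5 and Col4a1 above Col4a2 in WT medium. On that scale Nid1 was at 99.1 and Lamb1 at 99.0 CPM per kb in WT medium, at 107 and 103 there without replicate 1, and at 112 and 94.4 in PHD2cko medium. Without replicate 1, the means per kb of merged exons in WT medium kept the same order, from 94.3 for Nid1 and 60.2 for Lamb1 to 0.344 for Col15a1.

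In WT BMDMs the order was led by Col18a1, at 15.6 ± 0.180 CPM per kb, and Lamc1, at 13.9 ± 0.298, without overlap. Col4a5 was at 1.49 ± 0.147, Col4a2 at 0.617 ± 0.0793, Col15a1 at 0.510 ± 0.0469 and Col4a1 at 0.263 ± 0.0650 CPM per kb. Among these 4, only Col4a2 and Col15a1 overlapped. Lamb1 was at 0.0498 ± 0.0109 CPM per kb, and the remaining 3 members were at 0 to 2 counts in every WT library.

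**Figure D1:**
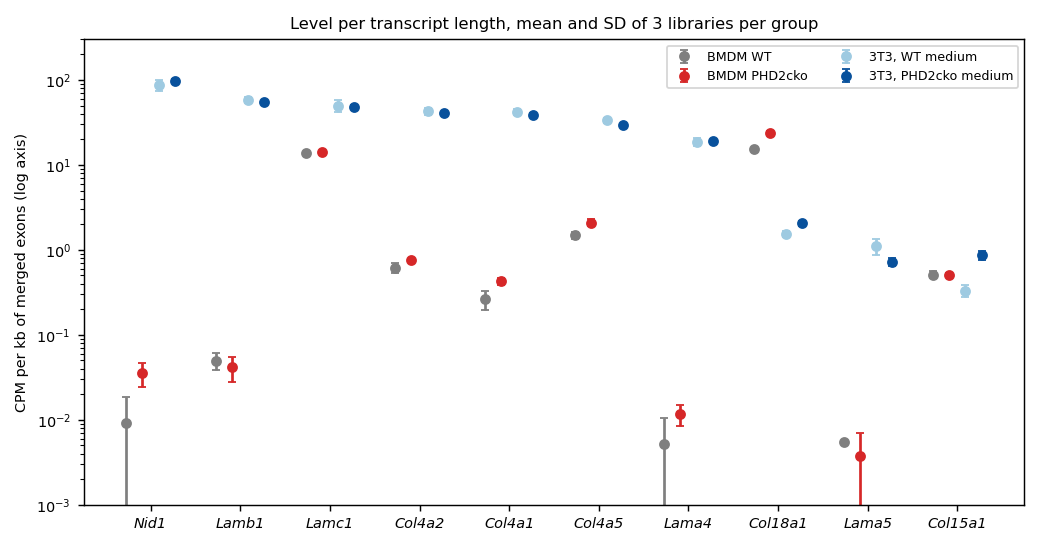
Level of each member in CPM per kb of merged exons (log axis), as the mean and SD of 3 libraries in each of the 4 groups, ordered by the level in fibroblasts in WT medium. Nid1, Lamb1 and the collagen IV members lie far lower in BMDMs, and Lamc1 is closer between the cell types. Col18a1 is higher in BMDMs, at 15.6 against 1.54 CPM per kb in WT.

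The collagen IV genes among the members were far higher in fibroblasts. The log2 fold change from WT BMDMs to fibroblasts in WT medium was 7.33 (SE 0.119) for Col4a1, 6.10 (SE 0.0976) for Col4a2 and 4.49 (SE 0.0833) for Col4a5. Lamb1 differed by 10.15 (SE 0.125), from 6, 10 and 8 counts to 10295, 15842 and 11713. Lamc1 differed least among the 8, by 1.85 (SE 0.0920), since the macrophages held 1811, 1880 and 1856 counts of it. Macrophages thus had a gamma chain transcript beside almost no Lamb1, with a Lamb1 to Lamc1 ratio of 0.00360 ± 0.000837 per kb against 1.17 ± 0.104 in fibroblasts (SD, n = 3 each), or 1.11 there without replicate 1.

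Nid1 and both laminin alpha chain genes were at 0 to 2 counts in WT BMDM libraries, so their contrast was expressed as a ratio of summed counts with a 95% interval for counting error. It was 9798 (3353 to 47516) for Nid1, 3657 (1251 to 17734) for Lama4 and 204 (69.6 to 992) for Lama5. Col18a1 went the other way, with a log2 fold change of -3.34 (SE 0.0653) and an adjusted p of 3.27e-14 in edgeR. Col15a1 was lower in fibroblasts by a smaller step, -0.63 (SE 0.161, adjusted p = 0.00245 in edgeR), and was under 4 CPM in both cell types. Both are genes of the collagens at the outer face of the basement membrane, and the fragment endostatin is cut from the end of collagen XVIII.

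**Figure D2:**
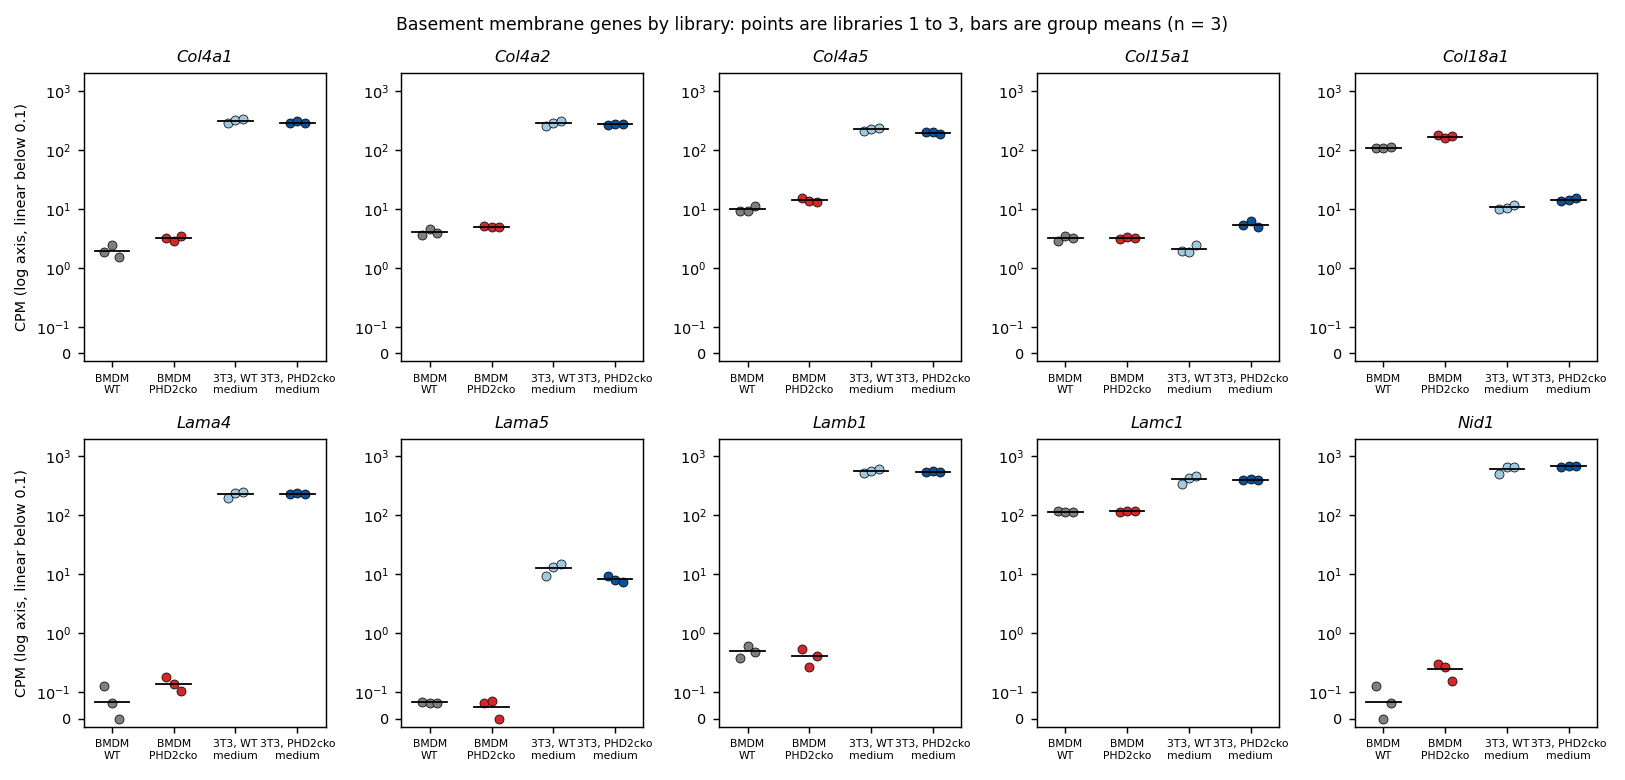
CPM of each member (log axis, linear below 0.1) in the 12 libraries, with points for replicates 1 to 3 and bars for group means. The step between cell types exceeds every difference between labels, except for Col15a1, which is at 2.10 CPM in fibroblasts in WT medium, 5.47 CPM in PHD2cko medium and 3.24 CPM in both BMDM groups.

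The second comparison asked whether medium of BMDMs labelled PHD2cko changed these genes in fibroblasts. Col15a1 rose 2.61-fold and Col18a1 1.34-fold, Lama5 fell to 0.656 of its level, and the abundant members did not pass the test. Thus 2 of 10 members were higher, against 8.93% of all 14285 genes tested, and 1 was lower, against 6.75%. The libraries of 4 members did not overlap between the media (Col15a1 and Col18a1 above, Col4a5 and Lama5 below), against 31.9% of all genes. The median log2 fold change of the 10 was -0.048, and that of all genes was -0.0046.

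Col15a1 was at 1.93, 1.89 and 2.48 CPM in WT medium and at 5.29, 6.19 and 4.94 CPM in PHD2cko medium, from 38, 52 and 47 against 103, 107 and 102 counts. Every library in PHD2cko medium was more than 2 CPM above every library in WT medium. The log2 fold change was 1.39 (SE 0.151, adjusted p = 1.27e-04 in edgeR's test). It was 1.36 (SE 0.169) without replicate 1 in WT medium, and it passed the threshold in every alternative tried, from 1.29 to 1.57. The gene stayed at the low end of the set, at 0.862 ± 0.102 CPM per kb in PHD2cko medium.

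Col18a1 was at 10.2, 10.6 and 11.7 CPM in WT medium and at 13.6, 14.1 and 15.5 CPM in PHD2cko medium. The groups did not overlap, and the closest libraries were replicate 3 in WT medium and replicate 1 in PHD2cko medium. The log2 fold change was 0.42 (SE 0.0740, adjusted p = 0.00231 in edgeR), and 0.41 without replicate 1 in WT medium. The macrophage markers moved with this result, and BMDMs held 108 to 177 CPM of Col18a1.

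The part of each member that the macrophage marker share would give was computed from the BMDM level under the matching label. For Col18a1 it came to 62.7, 12.4 and 60.0 of the 264, 244 and 321 counts of replicates 1, 2 and 3 in PHD2cko medium. After subtraction of that share the log2 fold change of Col18a1 was 0.20 (SE 0.0896, adjusted p = 0.159 in edgeR). Replicate 2, with the lowest share, was at 14.1 CPM and lay above all libraries in WT medium, and used alone against them it gave 0.39 (adjusted p = 0.0814), with its own variation taken from the other groups. For Col15a1 the expected part was 1.20, 0.239 and 1.15 of 103, 107 and 102 counts, and the log2 fold change after subtraction was 1.41. For Lamc1, the other member that BMDMs express well, it was 43.3, 8.60 and 41.5 of 7726, 7218 and 8044 counts.

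**Figure D3:**
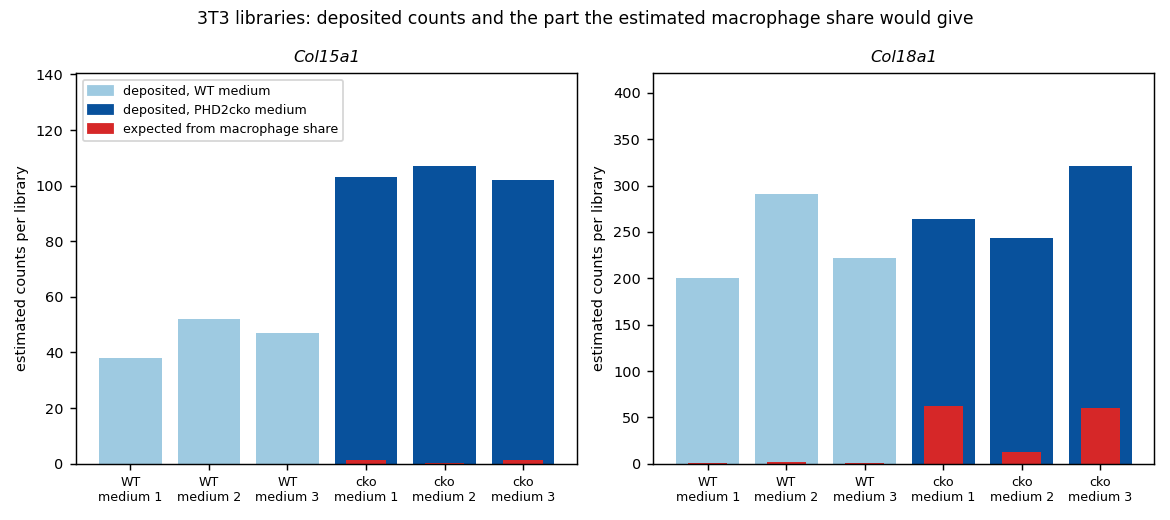
Deposited estimated counts of Col15a1 and Col18a1 in the 6 fibroblast libraries (wide bars; light for WT medium, dark for PHD2cko medium) and the counts expected from the estimated macrophage share (narrow red bars). The expected part reaches 62.7 of 264 counts for Col18a1 and at most 1.20 counts for Col15a1.

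Among the collagen IV genes, Col4a5 was at 209.5, 225 and 239 CPM in WT medium and at 199, 201 and 187 CPM in PHD2cko medium. All 3 libraries in PHD2cko medium were below all 3 in WT medium. The log2 fold change was -0.20 (SE 0.0641, adjusted p = 0.0569 in edgeR), which missed the threshold. DESeq2's Wald test gave an adjusted p of 0.0452 and limma-voom 0.0323.

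Col4a1 was at 285, 323 and 341 CPM in WT medium and at 286, 305 and 286 CPM in PHD2cko medium, a log2 fold change of -0.11 (SE 0.0734, adjusted p = 0.340 in edgeR). Col4a2 was at 251, 288 and 307 CPM and at 268, 275 and 271 CPM, with -0.056 (SE 0.0663, adjusted p = 0.629). For both, replicate 1 in WT medium lay below all libraries in PHD2cko medium, and replicates 2 and 3 lay above them. The ratio of Col4a1 to Col4a2 per kb was 0.995 ± 0.0126 in WT medium and 0.955 ± 0.0258 in PHD2cko medium (SD, n = 3 each). The ratios of single libraries were 1.01, 0.993 and 0.984 against 0.946, 0.985 and 0.935, so the groups overlapped only through replicate 2 in PHD2cko medium. A two-sided exact permutation test gave p = 0.2 (adjusted p = 0.3 over 6 ratios), where 0.1 is the smallest p that 3 against 3 libraries allow, so a difference was not shown, and equality was not shown either. Without replicate 1 the ratio in WT medium was 0.988. Per kb of the longest coding transcript the ratios were 1.09 and 1.05.

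Lama5 encodes the alpha chain found in most epithelial and vascular basement membranes of the adult. It was at 9.51, 13.4 and 14.9 CPM in WT medium and at 9.25, 8.16 and 7.41 CPM in PHD2cko medium. The groups did not overlap, but replicate 1 in WT medium lay just above replicate 1 in PHD2cko medium. Lama5 fell by 0.61 on the log2 scale (SE 0.157, adjusted p = 0.0209 in edgeR). Without replicate 1 in WT medium it fell by 0.75 (adjusted p = 0.00131), and after subtraction of the macrophage share by 0.57 (adjusted p = 0.0302). The call was lost without replicate 2 (adjusted p = 0.0731) or 3 (0.0742) in WT medium and without replicate 2 (0.0501) or 3 (0.0981) in PHD2cko medium. It was also lost when the fibroblast libraries were fitted alone (0.0890) and with a replicate block (0.0563), and with only replicate 2 in PHD2cko medium (0.254).

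Lama4, an alpha chain of vessel walls, fat and muscle, was at 195, 237 and 245 CPM in WT medium and at 231, 241 and 229 CPM in PHD2cko medium. Its log2 fold change was 0.047 (SE 0.0773, adjusted p = 0.736 in edgeR). Per kb, fibroblasts held 17.2 ± 1.96 times as much Lama4 as Lama5 in WT medium and 26.8 ± 2.94 times in PHD2cko medium (SD, n = 3 each). The libraries did not overlap in this ratio (p = 0.1 in the exact permutation test, its lower limit, and adjusted p = 0.2 over 6 ratios). The size of this ratio depends on the length used. Per kb of the longest coding transcript it was 34.3 ± 3.91 in WT medium and 53.6 ± 5.88 in PHD2cko medium. Without replicate 1 in WT medium it was 16.1 per kb of merged exons and 32.2 per kb of the transcript.

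Lamb1 was at 524, 575 and 619 CPM in WT medium and at 541, 553 and 543 CPM in PHD2cko medium, with a log2 fold change of -0.069 (SE 0.0654). Lamc1 was at 339, 436 and 463 CPM and at 397, 418 and 390 CPM, with -0.040 (SE 0.0878). The groups overlapped for both genes, and the adjusted p in edgeR was 0.529 and 0.807. The ratio of Lamb1 to Lamc1 per kb was 1.17 ± 0.104 in WT medium and 1.13 ± 0.0284 in PHD2cko medium (exact permutation test, p = 0.9, adjusted p = 0.9). Without replicate 1 it was 1.11 in WT medium, below PHD2cko medium, so the direction turned with that library. Per kb of the longest coding transcript it was 1.84 and 1.79 over all libraries.

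Nid1 was at 501, 647 and 663 CPM in WT medium and at 660, 694 and 695 CPM in PHD2cko medium. Replicate 1 in WT medium was far below the rest, and replicate 3 in WT medium lay just above the lowest library in PHD2cko medium. The log2 fold change was 0.18 (SE 0.0967, adjusted p = 0.246 in edgeR). Relative to Lamc1, the laminin chain that nidogen binds, Nid1 was at 1.74 ± 0.0332 per kb in WT medium and at 2.03 ± 0.0849 in PHD2cko medium. The libraries did not overlap in this ratio (p = 0.1 in the exact permutation test, its lower limit, and adjusted p = 0.2 over 6 ratios). Without replicate 1 the ratio in WT medium stayed at 1.74.

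Without replicate 1 in WT medium, 7 of the 10 members passed the threshold, 2 higher and 5 lower. Added to the 3 above were Col4a1 at -0.16 (adjusted p = 0.0184), Col4a2 at -0.11 (0.0382), Col4a5 at -0.22 (0.00589) and Lamc1 at -0.14 (0.0152), all in edgeR. Lamb1 was at -0.11 (0.0723), Nid1 at 0.082 (0.248) and Lama4 at -0.025 (0.701). Over all genes the number past the threshold was 2757 in place of 2240, and it fell to 1319 and 1260 without replicates 1 and 3 in PHD2cko medium. Whether that library or its absence gives the better estimate was not tested.

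**Figure D4:**
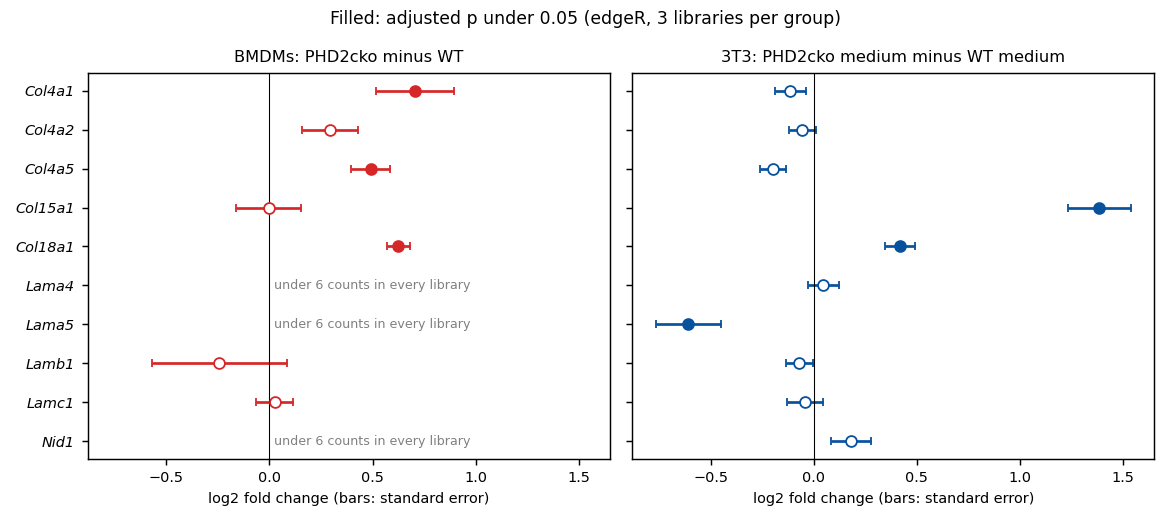
Log2 fold change of each member with its standard error in BMDMs (left, PHD2cko minus WT) and in fibroblasts (right, PHD2cko medium minus WT medium), from the fit over all 12 libraries. Filled points have an adjusted p under 0.05 in edgeR: Col4a1, Col4a5 and Col18a1 in BMDMs, and Col15a1, Col18a1 and Lama5 in fibroblasts.

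The third comparison was between BMDMs of the 2 labels. Col18a1 rose 1.54-fold, Col4a1 1.63-fold and Col4a5 1.40-fold under the label PHD2cko, and no member was called lower. Lama4, Lama5, Lamb1 and Nid1 were too low in BMDMs to be read. Of the 6 members with at least 10 counts in every BMDM library, 3 were thus higher, against 3.38% of all genes tested, and 0 were lower, against 3.35%. The libraries of 4 of these 6 did not overlap, all with PHD2cko above, against 31.9% of all genes in either direction. These were Col18a1, Col4a1, Col4a2 and Col4a5. The shares of all genes carry no such limit on counts. With at least 10 counts required of every gene, 1065 of 11638 genes passed in either direction, in place of 961 of 14285. The background itself moved with single libraries. In place of 961 genes, 527, 596 and 607 passed without WT replicates 1, 2 and 3, 535 and 603 without replicates 1 and 2 labelled PHD2cko, and 1889 without fibroblast replicate 1 in WT medium, where 2 to 3 members passed.

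Col18a1 was at 108, 109.8 and 111 CPM in WT and at 177, 160.4 and 169.8 CPM under the label PHD2cko. The lowest library labelled PHD2cko was far above the highest in WT. The log2 fold change was 0.63 (SE 0.0537, adjusted p = 1.52e-05 in edgeR) and it held in every alternative tried, from 0.59 to 0.66. This was the most abundant member in BMDMs on the CPM per kb scale, at 24.1 ± 1.15 under the label PHD2cko.

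Col4a5 was at 9.41, 9.44 and 11.1 CPM in WT and at 15.4, 13.9 and 13.0 CPM under the label PHD2cko. The groups did not overlap, and the log2 fold change of 0.49 (SE 0.0965, adjusted p = 0.00798 in edgeR) held in every alternative tried. Col4a1 was at 1.88, 2.48 and 1.52 CPM and at 3.22, 2.87 and 3.46 CPM, from 25 to 41 counts in WT and 42 to 66 under the label PHD2cko. Its log2 fold change was 0.70 (SE 0.188, adjusted p = 0.0431 in edgeR), close to the threshold.

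The call of Col4a1 was lost without 8 of the 12 libraries in turn. Among the BMDM libraries these were WT replicates 1 (adjusted p = 0.131) and 3 (0.154), and replicates 1 (0.111), 2 (0.0594) and 3 (0.143) labelled PHD2cko. Among the fibroblast libraries, which share the fit, they were replicate 2 in WT medium (0.0597) and replicates 1 (0.0574) and 3 (0.0602) in PHD2cko medium. The call was also lost with limma-voom (0.158) and with a replicate block (0.0837), while the log2 fold change stayed between 0.55 and 0.92. Col4a2 was at 3.64, 4.66 and 3.95 CPM in WT and at 5.10, 5.05 and 4.93 CPM under the label PHD2cko. These groups did not overlap either, but the log2 fold change of 0.30 (SE 0.135, adjusted p = 0.259 in edgeR) did not pass.

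BMDMs held less Col4a1 than Col4a2 per kb, by a wider gap than fibroblasts, whose ratios were 0.995 and 0.955. In BMDMs the ratio was 0.424 ± 0.0722 in WT and 0.562 ± 0.0597 in libraries labelled PHD2cko (n = 3 each, SD), with p = 0.1 in the exact permutation test, its lower limit, and adjusted p = 0.25 over 5 ratios. A fibroblast share in the BMDM libraries, estimated from the fibroblast markers, was at most 0.0602%, and it would give 1.80 to 3.95 counts of Col4a1. Without Fn1, a fibroblast marker that macrophages also make, it would give 0.510 to 1.81 of the 25 to 66 counts found.

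Lamc1 was at 118, 114 and 113 CPM in WT BMDMs and at 115, 117 and 119 CPM under the label PHD2cko. The groups overlapped, with a log2 fold change of 0.025 (SE 0.0912, adjusted p = 0.951 in edgeR). Col15a1 was at 2.92, 3.51 and 3.29 CPM in WT and at 3.10, 3.42 and 3.20 CPM under the label PHD2cko. The groups lay within each other, with a log2 fold change of -0.0040 (SE 0.158).

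The other laminin genes and Nid1 were at the edge of detection in BMDMs. Lamb1 had 6, 10 and 8 counts in WT and 9, 4 and 8 under the label PHD2cko, Lama4 had 2, 1 and 0 against 3, 2 and 2, and Lama5 had 1, 1 and 1 against 1, 1 and 0. No difference in Lama4 or Lama5 was detectable at this depth. Nid1 had 2, 0 and 1 counts in WT and 5, 4 and 3 under the label PHD2cko, a ratio of summed counts of 3.86 with a 95% counting interval of 1.04 to 21.3. The fibroblast share would give 3.45 to 6.19 counts of Nid1 in WT libraries and 6.13 to 7.53 under the label PHD2cko, above the counts found, and 3.27 to 7.15 counts of Lamb1. Computed without Fn1, it would give 0.975 to 3.26 and 2.89 to 3.45 counts of Nid1, and 0.924 to 3.27 counts of Lamb1.

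**Figure D5:**
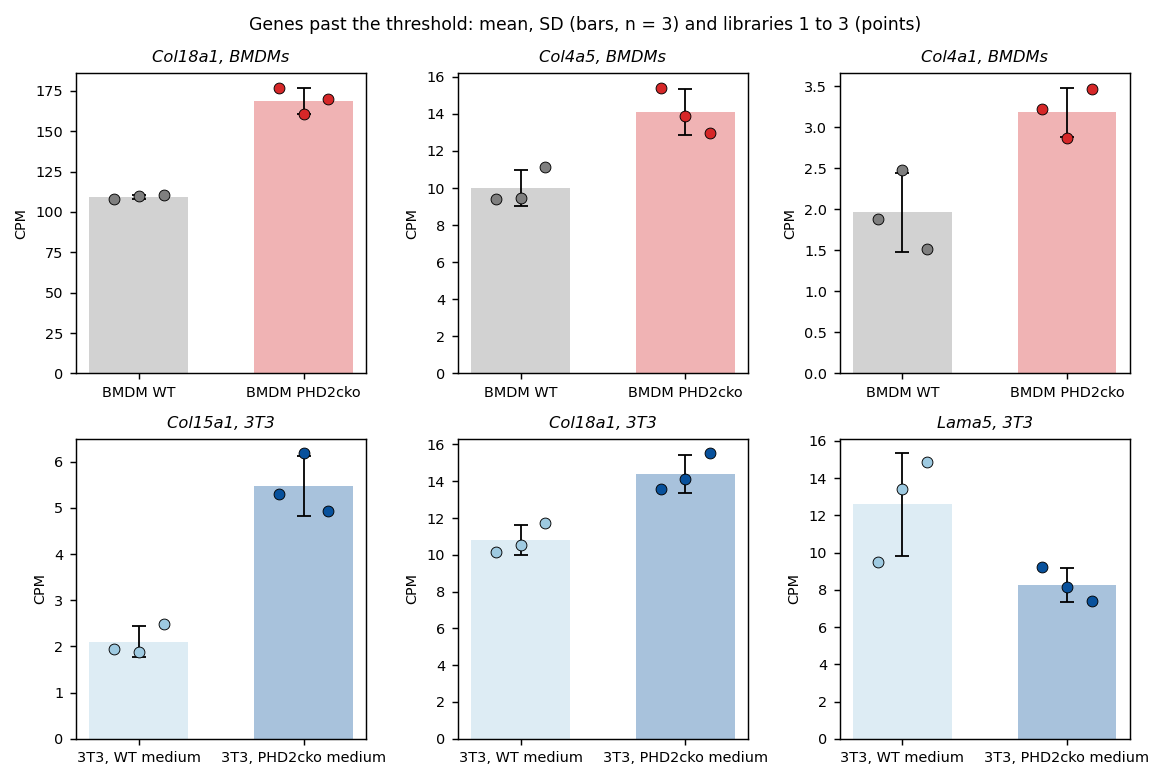
CPM of the members past the threshold, with BMDMs in the upper row (Col18a1, Col4a5, Col4a1) and fibroblasts in the lower row (Col15a1, Col18a1, Lama5), as group means (bars), SD (error bars, n = 3) and single libraries (points). In Lama5, replicate 1 in WT medium, at 9.51 CPM, lies just above the highest library in PHD2cko medium, at 9.25 CPM.

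The fourth comparison tested whether the label had a different effect in fibroblasts and in BMDMs. It differed for 3 members, against 12.3% of all genes tested in either direction, and it uses the same libraries as the comparisons above. For Col15a1 the log2 fold change was 1.39 in fibroblasts and -0.0040 in BMDMs, a difference of 1.39 (SE 0.219, adjusted p = 0.00115 in edgeR). For Col4a5 it was -0.20 and 0.49, a difference of -0.69 (SE 0.116, adjusted p = 0.00180). For Col4a1 it was -0.11 and 0.70, a difference of -0.82 (SE 0.202, adjusted p = 0.0188). The difference for Col4a1 missed the threshold without WT BMDM replicate 1 (0.0551) or 3 (0.0634), without BMDM replicate 3 labelled PHD2cko (0.0640) and with limma-voom (0.0832). Without replicate 1 in WT medium, Col4a2 (-0.40, adjusted p = 0.0293) and Lamc1 (-0.17, 0.0425) passed as well. Col18a1 had a difference of -0.21 (SE 0.0915, adjusted p = 0.177), and its call in fibroblasts was lost after subtraction of the macrophage share (0.159) and with only replicate 2 in PHD2cko medium (0.0814). For Col4a1 and Col4a5 the direction was opposite in the 2 cell types, although neither value in fibroblasts passed the test over all libraries.

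Other components of basement membranes formed a list of 26 genes, of which 19 were tested. In fibroblasts 1 was higher and 3 were lower in PHD2cko medium, against 8.93% and 6.75% of all genes tested, with a median log2 fold change of -0.071 against -0.0046 over all genes. Tinagl1, a secreted protein of basement membranes, was at 54.5, 55.1 and 47.8 CPM in WT medium and at 24.6, 25.7 and 22.9 CPM in PHD2cko medium. It fell by 1.11 on the log2 scale (SE 0.0777, adjusted p = 8.65e-05 in edgeR). Smoc2, a calcium-binding protein of the SPARC family, fell by 0.62 (SE 0.0754, adjusted p = 4.22e-04). Npnt, a ligand of an integrin in kidney and other basement membranes, fell by 0.33 (adjusted p = 0.0228), a call lost without any of 4 fibroblast libraries, replicates 2 (0.0707) and 3 (0.0648) in WT medium and 1 (0.0834) and 3 (0.0987) in PHD2cko medium. The call of Npnt was also lost when the fibroblast libraries were fitted alone (0.0666) and with only replicate 2 in PHD2cko medium (-0.23, 0.444). Hmcn1, a very long matrix protein, rose by 1.54 (SE 0.360, adjusted p = 0.0126), from 9, 23 and 17 to 57, 43 and 22 counts. Its call was lost without replicate 1 in PHD2cko medium (0.0684) and when the fibroblast libraries were fitted alone (0.0794). Without replicate 1 in WT medium all 4 passed, Tinagl1 at -1.06, Smoc2 at -0.58, Npnt at -0.39 and Hmcn1 at 1.33.

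In BMDMs only Agrn, Lama3 and Lamb2 of the 19 had at least 10 counts in every library, and the other 16 could not be read well. Of the 3, Lama3 was called higher and 0 were lower. Sparc was called higher among the other 16, so 2 of the 19 were higher, against 3.38% of all genes tested. Sparc, a collagen-binding matrix protein, had 2, 10 and 2 counts in WT and 17, 12 and 22 under the label PHD2cko, a log2 fold change of 1.79 (SE 0.385, adjusted p = 0.0140 in edgeR). Fibroblasts held 26964 to 42217 counts of Sparc, and the summed fibroblast markers in BMDMs were at 7.18 to 12.8 CPM in WT and 12.7 to 14.8 CPM under the label PHD2cko. The part of that share in the Sparc result was not tested. Lama3, an alpha chain of epithelial laminin, had 35, 62 and 63 counts in WT and 108, 99 and 107 under the label PHD2cko, a log2 fold change of 0.93 (SE 0.250, adjusted p = 0.0433). The calls rested on few counts. Lama3 lost its call without 9 of the 12 libraries in turn, every BMDM library among them (adjusted p up to 0.170), and with a replicate block (0.0584). Sparc lost it without WT replicates 1 (0.0688) and 3 (0.0619) and replicates 1 (0.0507) and 3 (0.0649) labelled PHD2cko, and with a replicate block (0.0537). Its log2 fold change was 2.95 without WT replicate 2, the WT library with 10 counts, and as low as 1.42 without WT replicate 3. Between cell types, 3 genes had at least 10 counts in every WT BMDM library. Of these, 2 were higher in fibroblasts and 1, Lama3, was lower. The shares of all genes tested, with no such limit on counts, were 44.9% and 40.4%. The other 16 are not counted, since most were tested only through their counts in fibroblasts.

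Genes that assemble or modify collagen IV made up a list of 11, all tested. In BMDMs P4ha1 and P4ha2, catalytic subunits of the enzyme that hydroxylates prolines in collagen, rose and Colgalt1, which adds galactose to collagen hydroxylysine, fell. These 2 higher and 1 lower, among 8 with at least 10 counts in every BMDM library, stand against 3.38% and 3.35% of all genes tested. The shares of all genes carry no such limit on counts. P4ha1 was at 67.6, 64.2 and 62.5 CPM in WT and at 107.3, 101.4 and 109.1 CPM under the label PHD2cko, with a log2 fold change of 0.71 (SE 0.0488, adjusted p = 2.27e-06 in edgeR). P4ha2 was at 3.57, 3.57 and 4.08 CPM and at 6.19, 5.40 and 6.04 CPM, with 0.65 (SE 0.109, adjusted p = 0.00275). Colgalt1 was at 298, 286 and 299.5 CPM and at 211, 221 and 220.5 CPM, and it fell by 0.44 (SE 0.0427, adjusted p = 4.52e-05). The groups did not overlap for any of the 3. In fibroblasts 0 were higher and 1, Plod3, a lysyl hydroxylase, fell by 0.18 (SE 0.0522, adjusted p = 0.0385), against 8.93% and 6.75% of all genes. Plod3 lost its call without 9 of the 12 libraries in turn (adjusted p up to 0.157), replicate 1 in WT medium among them (0.0669). It was also lost with no filter beyond 1 count (0.0760), with the fibroblast libraries fitted alone (0.147) and with only replicate 2 in PHD2cko medium (0.198).

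Cell surface receptors of basement membrane proteins made up a list of 13, of which 11 were tested. Itga6, the alpha subunit of laminin-binding integrins, was at 42.4, 50.6 and 52.8 CPM in fibroblasts in WT medium and at 62.7, 61.3 and 62.3 CPM in PHD2cko medium. It was the only receptor past the threshold there, with 0 lower, against 8.93% and 6.75% of all genes, and it rose by 0.35 (SE 0.0731, adjusted p = 0.00619 in edgeR) and by 0.27 after subtraction of the macrophage share (adjusted p = 0.0305). With only replicate 2 in PHD2cko medium, the library with the lowest macrophage share, it was at 0.34 and missed the threshold (adjusted p = 0.154). Without replicate 1 in WT medium it rose by 0.29 (adjusted p = 0.00226). BMDMs express Itga6 at 351 to 398 CPM. In BMDMs 6 of the receptors had at least 10 counts in every library. Of these 0 were higher and Itga1, the alpha subunit of a collagen IV-binding integrin, was lower. The shares of all genes, with no such limit on counts, were 3.38% and 3.35%. Itga1 was at 8.31, 6.48 and 7.61 CPM in WT and at 5.10, 4.44 and 4.36 CPM under the label PHD2cko. It fell by 0.69 (SE 0.146, adjusted p = 0.0130 in edgeR). The call of Itga1 was lost without WT replicate 1 (0.0688) and without replicate 2 (0.0539) or 3 (0.0579) labelled PHD2cko.

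Likeness between members was described as Pearson's r of log2 CPM over the 12 libraries after the group means had been removed, among 10657 genes with at least 10 counts in every library. Of the members 6 were among these genes. Lama4, Lama5, Lamb1 and Nid1 were not, since their counts in BMDMs were too low to give such a value. The values share the libraries and their depth, and for Col4a1 and Col15a1 also the counting error of few reads, so they carry no p. They include replicate 1 of the fibroblasts in WT medium, which stood apart from its group. How far that library sets them was not tested. Col4a2 was the member most like Col4a1, with r = 0.689, yet it ranked only 254 among all these genes, which were led by Dennd2a (r = 0.936). Col15a1 and Col18a1 had r = 0.161. Outside the set, the closest genes were Kctd9 for Col4a2 (r = 0.966), Tcaf1 for Col4a5 (0.958), Mtmr14 for Col15a1 (0.910), Slc6a18 for Col18a1 (0.939) and Sbf2 for Lamc1 (0.995). Slc6a18 had few counts in every library.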

How the data were processed

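RNA had been sequenced from 12 libraries in 4 groups of 3. The authors deposited estimated counts per gene, made with kallisto on GRCm38, summed to genes and given as whole numbers, with no normalization. How the estimates became whole numbers is not given in the sources used here. Samples were grouped by GEO's labels, and 0 columns were left unmapped. The 10 members and all lists were chosen with earlier results of these data known.

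Libraries were fitted together with edgeR 4.0.16 in R 4.3.3 (TMM, filterByExpr, quasi-likelihood, two-sided). Of 32544 genes 14285 were kept and 18259 left out, and p-values were Benjamini-Hochberg adjusted over the genes kept, with a threshold of 0.05. CPM are counts over the effective library size. For the macrophage share, marker counts were divided by the library total, without TMM, and summed. That sum was divided by the mean sum in BMDMs of the matching label. The share times the BMDM profile was subtracted in an alternative. The fibroblast share was computed likewise, but from fibroblasts in WT medium for BMDMs of both labels. Permutation tests were exact and two-sided. Counting intervals are 95% and cover counting error only, and 3 counts were taken as the floor. At the shallowest library that is 0.193 CPM.

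Named genes were all members, Egln1, and per list and comparison up to 5 genes past the threshold with the largest change, beside the gene most like each member. Positions came from GENCODE vM21 and promoters from RefSeq (GRCm38.p6). The pipeline was tested on simulated data. Alternatives were DESeq2's size factors, DESeq2 1.42.0 with its Wald test, voom in limma 3.58.1, a filter of 10 counts, no filter beyond 1 count, the libraries compared alone, a replicate block, and each library left out in turn. A fit with only replicate 2 in PHD2cko medium, list genes with the macrophage share subtracted, the fibroblast share without Fn1, ratios and levels without replicate 1 in WT medium or per longest coding transcript, and the limit of 10 counts for likeness and for list counts in BMDMs were added after seeing the data.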

Additional observations from a re-analysis of the deposited data

Results flagged for a closer look

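A test of the difference between the effect of the label in fibroblasts and in BMDMs (edgeR's quasi-likelihood test, adjusted over all genes tested) marked 9 of the genes named here. Among the members these were Col15a1, with a difference in log2 fold change of 1.39, Col4a1 with -0.82 and Col4a5 with -0.69. Among the list genes they were Sparc with -1.83 (adjusted p = 0.00926), P4ha2 with -0.74 (0.00178), P4ha1 with -0.57 (2.47e-04) and Colgalt1 with 0.33 (0.00301). P4ha1 had log2 fold changes of 0.14 in fibroblasts and 0.71 in BMDMs, P4ha2 of -0.081 and 0.65, Colgalt1 of -0.10 and -0.44, and Sparc of -0.046 and 1.79. Egln1 differed by -0.27 (adjusted p = 0.0319), with 0.060 in fibroblasts and 0.33 in BMDMs. Kdr differed by 3.89 (0.00496), with 2.87 in fibroblasts, where it had 0 to 16 counts, and -1.02 in BMDMs. The value of Sparc rests on 2 to 22 counts in the BMDM libraries. All groups held 3 libraries, so single libraries were not tested as outliers.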

How the results depend on the processing

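Alternatives were run for the counts of members called, for Egln1 in BMDMs, for the list genes named as called other than Kdr, and for the members, except Lama4, Lama5 and Nid1 where BMDMs enter. Of these values and counts, 846 kept their direction and their side of the threshold, 62 fell short of it, 8 came to pass it, 12 changed sign and 4 counts moved by over 1.5 times. The number of members past the threshold in fibroblasts, 3, ran from 2 to 7 with single libraries left out, with 7 without replicate 1 in WT medium, and was 1 (Col15a1) with only replicate 2 in PHD2cko medium, where that lone library was assumed to vary like the other groups. The number for the difference of the label effects, 3, ran from 2 to 5, with 5 without replicate 1 in WT medium. Between cell types it was 6 in place of 10 with at least 10 counts in every library compared, since 4 members were then not tested. The changes of sign were all in values near 0. With single libraries left out, values in fibroblasts ran from -0.025 to 0.11 for Lama4, from -0.11 to 0.0092 for Col4a2 and from -0.14 to 0.050 for Lamc1, which was at 0.019 with only replicate 2 in PHD2cko medium. In BMDMs Col15a1 ran from -0.071 to 0.059 and was at 0.00020 with the replicate block. In the difference, Lamb1 ran from -0.020 to 0.40 and Lamc1 from -0.17 to 0.024. Same-numbered libraries did not deviate together, with correlations of -0.0247 to 0.0235 in BMDMs and -0.0822 to 0.0418 in fibroblasts, so the numbers were not treated as a pairing. With the replicate block, 2 members passed in fibroblasts and 2 in BMDMs, and over all genes 1859 in place of 2240 and 817 in place of 961. Over all genes in fibroblasts, fitting only the 6 libraries compared gave 912 and only replicate 2 in PHD2cko medium gave 434. In BMDMs, the libraries compared alone gave 2534. The cause of these shifts was not tested. With 3 libraries per group, differences of the size seen in Col4a1, Col4a2 and Lamc1 in fibroblasts lie near the standard error, and with under 10 counts per library no difference in Lama4 or Lama5 could be read in BMDMs.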
